A study of Mus musculus with 9 samples.

Results

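The translation initiation and elongation factors studied here were 48 of the 12393 genes that the arrays measured, namely the genes whose symbol began with Eif and a digit (without the Eif2ak kinases) or with Eef1 or Eef2. Membership used symbols alone and no measured value. Each gene was read from probe sets assigned to a single symbol, and where several existed the one with the highest mean level over the 9 arrays stood for the gene; 109 probe sets named these genes, 27 genes had more than 1 and 21 had 1. The RNA came from mouse splenic dendritic cells (DC), the antigen-presenting cells that prime T cells. The mice were 6 to 8 weeks old and carried B16 melanoma tumours engineered to make Flt3L, the cytokine that expands DC, so every group shared the tumour and the Flt3L exposure. Cells were enriched with magnetic beads against CD11c and left untreated, or treated with TSA or with butyrate, with 3 arrays in each of the 3 groups. TSA (trichostatin A) and butyrate, which gut bacteria make from fibre, are both known inhibitors of histone deacetylases. Strain, sex, dose and duration are not given in the labels, and separate mice or cultures are not stated for the arrays of a group, so p-values measure the spread between these samples, which may be technical.

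Translation begins when eIF2 brings the initiator tRNA to the small ribosomal subunit, eIF4F (the cap-binding eIF4E, the scaffold eIF4G and the helicase eIF4A) loads the mRNA, and eIF3, a large multi-subunit complex, holds the small subunit and the mRNA together. After scanning by eIF1 and eIF1A, eIF5 triggers GTP hydrolysis on eIF2, eIF5B joins the large subunit, and eIF2B reloads eIF2 with GTP. Elongation uses eEF1A to deliver charged tRNAs, the eEF1B complex to recharge eEF1A, and eEF2 to move the ribosome along; DC change their protein synthesis as they mature, and phosphorylation of eIF2 and the 4E-binding proteins sets its rate.

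Promoter sequences are shown because members that went up and members that went down carried the same letters near their start sites. RefSeq promoters (GRCm38.p6, 250 bases before to 50 after the annotated start) were matched by gene for 38 of the 48 members, and 6 motifs, chosen after earlier results were known, were searched on both strands. The letters CACGTG, the E-box bound by Myc, Max and related proteins, stood in 11 of the 38 members with an entry (28.9%) and in 10.8% of the 9882 genes with one. CCGGAAGT, which holds the ETS core, stood in 7 of the 38 (18.4%) against 7.24% of genes, and GGGCGGG in 60.5% against 46.3%. CCAAT stood in 34.2% of members and 42.3% of genes, TATAAA in 10.5% and 11.9%, and TGACGTCA in 2.63% and 3.0%. In the windows below the E-box is in capitals; positions count from 1 at the annotated start, with -1 just before it. Eef2 held it at -43 (chr10:81176577-81176604, plus strand), Eif3k at -44 (chr7:28981916-28981943, minus strand), Eif3f at -68 (chr7:108934336-108934363, plus strand), Eif4e at -64 (chr3:138527193-138527220, plus strand) and Eif4a1 at -189 (chr11:69672596-69672623, minus strand).
Eef2: cccggcgccgtCACGTGacgcacccaac
Eif3k: tggaaggaaatCACGTGgtagacaaaaa
Eif3f: aagatatgattCACGTGgtataaattta
Eif4e: gacacgtccgtCACGTGggcaggagccg
Eif4a1: gatcgcctccgCACGTGtaaaggtgctg
Eif4a1 is shown as a member that fell with each treatment, the others as members that rose.

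The ETS letters lay just after the start in several members, and are in capitals below. They began at 2 in Eef1b2 (chr1:63176821-63176850, plus strand) and in Eif2b4 (chr5:31193120-31193149, minus strand), at 17 in Eif2b2 (chr12:85219486-85219515, plus strand), and at 6 from the first of several annotated starts of Eif4e2 (chr1:87213905-87213934, plus strand).
Eef1b2: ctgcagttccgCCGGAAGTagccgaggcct
Eif2b4: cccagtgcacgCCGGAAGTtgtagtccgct
Eif2b2: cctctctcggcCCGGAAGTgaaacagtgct
Eif4e2: tcgccagccaaCCGGAAGTagccgggccct
Eif4e2 is shown as a member that fell with each treatment, and its letters lay at -23 from another annotated start. In Eif5a, Eif3l and Eif3d, not shown, the ETS letters lay before the start, at -55, -36 and -71. Those of Eif3l and Eif3d were on the opposite strand.

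Many ribosomal protein mRNAs, and some translation factor mRNAs, are known to begin with a C followed by a run of pyrimidines (the 5′ TOP motif), through which mTORC1 controls their translation. A C at the annotated start followed by at least 4 pyrimidines was found in Eif3f and Eif2s3x among the 38 members, in 3.04% of genes, and in 8 of 42 ribosomal protein genes. Allowing the tract to begin from 5 bases before to 5 after the start gave 9 of 38 members and 23.4% of genes. The tract of each (11 bases, in capitals) is shown with its surroundings (chr7:108934403-108934432, plus strand; chrX:94212634-94212663, minus strand), followed by 75 bases around the start of Eef2 (chr10:81176571-81176645, plus strand), the single member with both TATAAA and TGACGTCA, here in capitals.
Eif3f: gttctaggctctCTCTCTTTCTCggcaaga
Eif2s3x: ccgagcattttcCTTTTCTCTCCgagcaag
Eef2: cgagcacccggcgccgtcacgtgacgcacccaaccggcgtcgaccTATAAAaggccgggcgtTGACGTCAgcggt
A match of letters is a description of the sequence; binding was not measured.

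The values are log2 levels from RMA, a method that corrects background, equalises the arrays and combines the probes of a set, so a difference of 1 is a 2-fold change. Array medians lay between 6.698 and 6.746, values ran from about 3.03 to 15.19, and the number of arrays limits the precision. The cells carried DC markers: the class II genes H2-Aa and Cd74 averaged 14.65 and 14.39 on untreated arrays, Flt3 11.02 and Itgax, which encodes CD11c, 9.24. Markers of other cells were also read: of 11 macrophage and monocyte markers 10 were lower and 1 higher with TSA, and 10 were lower with butyrate, with a summed linear level of 6139 to 6494 untreated, 3326 to 3709 with TSA and 2601 to 2962 with butyrate. Of 9 neutrophil markers 7 were lower with TSA (sum 30824 to 32164 against 38770 to 39884 untreated) and 6 with butyrate, where 2 were higher (37407 to 37939). Of 7 NK cell markers 3 were lower with TSA, and with butyrate 2 were lower and 1 higher (sum 3108 to 3298 untreated, 1788 to 2073 with TSA, 1137 to 1202 with butyrate). Erythroid markers were lower in 5 of 6 with TSA (sum 12497 to 12865 untreated, 8341 to 8822) and in 4 with butyrate, where 1 was higher (10332 to 10674), B cell markers in 3 of 7 (1051 to 1082 untreated, 717 to 791) and 2 with butyrate (811 to 907), T cell markers in 3 of 8 with TSA (973 to 990 untreated, 877 to 964; 1032 to 1082 with butyrate, where 2 were higher). Of 7 B16 markers 2 were lower and 1 higher with TSA, and 1 was lower and 3 were higher with butyrate (sum 591 to 663 untreated, 480 to 482 with TSA, 484 to 515 with butyrate; median log2 difference -0.00050 and 0.13). DC markers were lower in 7 of 13 with TSA and 8 with butyrate, where 1 was higher (sum 94451 to 96517 untreated, 92685 to 94302 with TSA, 87785 to 88992 with butyrate). Over all genes, by the calls defined below, 26.3% were higher and 21.0% lower with TSA, and 33.6% and 24.8% with butyrate. With butyrate the B cell and NK cell falls lay near that share, and the T cell rises lay below theirs. No marker of any list averaged, over the 9 arrays, under the level that the dimmest 10% of genes had. The 3′ minus 5′ difference of Actb, a sign of RNA integrity, was 0.43 ± 0.066 untreated, 0.64 ± 0.042 with TSA and 0.68 ± 0.040 with butyrate (SD, n = 3). That of Gapdh shifted less, at 0.16 ± 0.014 untreated, 0.19 ± 0.025 with TSA and 0.22 ± 0.037 with butyrate. Whether these shifts had a part in the results on translation factors was not tested, and in such bulk samples fewer cells of a type and less RNA per cell cannot be told apart.

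With TSA, 26 of the 48 translation factors were higher than in untreated cells and 5 were lower; over all genes 26.3% were called higher and 21.0% lower. Together 31 were called (adjusted p under 0.05, limma with Benjamini-Hochberg adjustment over all genes), where 47.3% of all genes were. The median log2 difference of the 48 was 0.27, against 0.03 over all genes. The members were also brighter than most genes, with a median level of 10.15 against 7.12, and 44 lay above the gene median. The shares over all genes given here were not matched for level, and whether level had a part in the counts was not tested. The changes were small: 1 member, Eif4e3, was called with at least a 2-fold change, where 5.41% of genes were. With butyrate 34 were called where 58.4% of genes were: 23 higher (33.6% of genes) and 11 lower (24.8%), with a median of 0.13 against 0.08 over all genes, and again Eif4e3 alone reached 2-fold (7.33% of genes). The 38 members with Eif symbols gave 22 higher and 5 lower with TSA and 19 higher and 9 lower with butyrate. Of the 10 with Eef symbols 4 were higher with TSA (6 not called), and 4 were higher and 2 lower with butyrate. Some of these 10 encode no elongation factor but a kinase, methyltransferases or a synthetase scaffold. The 2 lower with butyrate, Eef1e1 and Eef1akmt1, were among those. Both comparisons share the untreated arrays. Of the 11 members with an E-box, 6 were higher and 1 lower with TSA and 6 and 2 with butyrate, on the deposited scale. Among all 48 members 54.2% were higher with TSA and 47.9% with butyrate, so the E-box rises were near the share of all members. Of the 7 with the ETS letters, 6 were higher and 1 lower with TSA and 5 and 1 with butyrate. A link between these letters and the changes was not tested.

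The scale of the butyrate arrays sets how those counts read. The hybridization spike-ins (BioB, BioC and BioD, 7 probe sets), bacterial transcripts meant to be added in equal amounts to each hybridization, read 10.37 ± 0.075 on untreated, 10.38 ± 0.030 on TSA and 10.78 ± 0.063 on butyrate arrays (SD, n = 3). The butyrate excess of 0.42 had an exact two-sided permutation p of 0.1, the smallest that 3 against 3 arrays allow; the poly-A spike-ins (15 probe sets) read 0.29 higher with butyrate, also at p = 0.1. Setting the arrays equal on the hybridization spike-ins moved the median of all genes with butyrate from 0.08 to -0.33, and that of the translation factors from 0.13 to -0.28. On that scale 7 members were higher with butyrate and 31 lower; with TSA the counts were 25 and 5. The 7 were Eif4e3, Eif4ebp2, Eif2d, Eif3i, Eef2, Eef1d and Eif3k, at 0.88, 0.37, 0.35, 0.32, 0.31, 0.26 and 0.21. On the scale of the poly-A spike-ins 12 members were higher and 2 lower with TSA, and 6 higher and 13 lower with butyrate; the TSA median there was 0.26, so fewer were called at about the same size of change. All 14 members not called with butyrate on the deposited scale were called lower on the hybridization scale, and 2 of them on the poly-A scale. The median of all genes on the poly-A scale was 0.02 with TSA and -0.20 with butyrate. Shares of all genes called on the spike-in scales are not given here. Counts on those scales, here and below, are therefore not read as particular to translation factors. Which scale is nearer to the RNA per cell was not tested, so butyrate values below are relative to the other genes on the array.

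**Figure D1:**
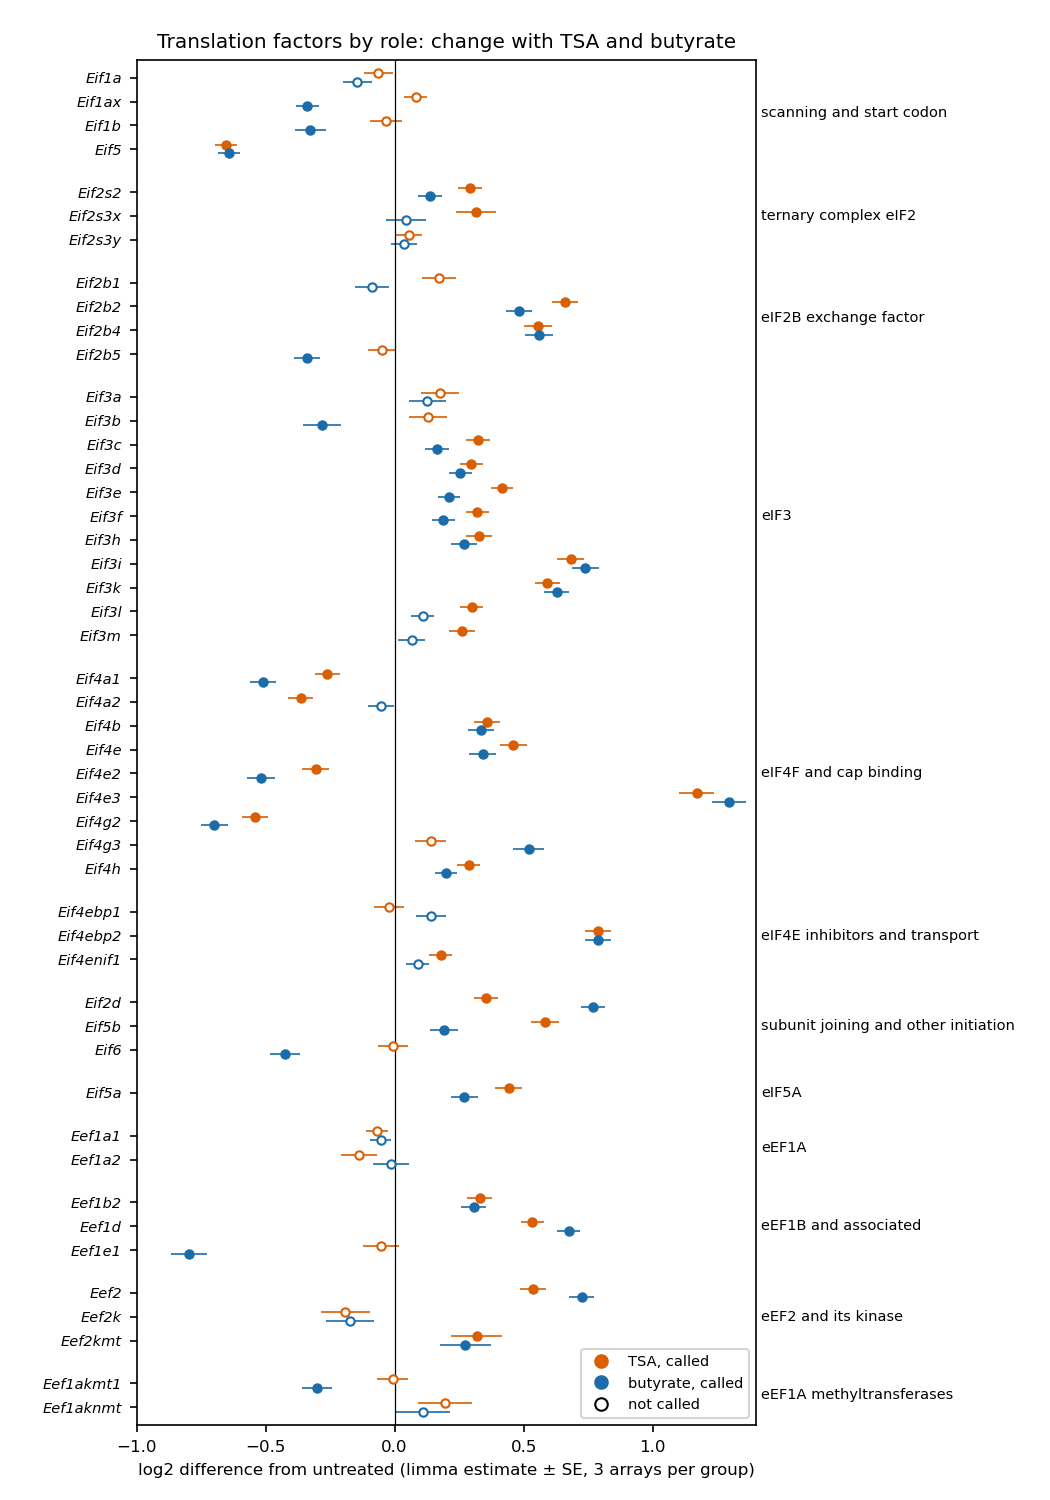
log2 difference from untreated (limma estimate ± SE, 3 arrays per group) of each of the 48 translation factors, grouped by role, for TSA (orange) and butyrate (blue); filled points were called at an adjusted p under 0.05. Of the 11 eIF3 subunits, 9 were higher with TSA, while Eif5 and Eif4g2 lay below -0.5 with each treatment.

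The eIF3 subunits moved upward as a group with TSA: 9 of the 11 measured were higher, the other two were not called, and all 11 estimates lay above 0, with a median of 0.32. With butyrate 7 were higher and 1, Eif3b, was lower (median 0.19), but on the hybridization scale 2 were higher and 7 lower. With TSA 9 of the 11 were also called higher on the hybridization scale, and 3 of 11 on the poly-A scale, where the median was 0.31. Eif3i, a WD-repeat subunit of the complex, had levels of 11.34, 11.21 and 11.20 on the untreated arrays, 11.93, 11.91 and 11.96 with TSA and 12.01, 12.02 and 11.95 with butyrate. Every treated array stood above every untreated array. Its rise was 0.68 ± 0.0523 (SE) with TSA, 1.6-fold, and 0.74 ± 0.0523 with butyrate, 1.67-fold (adjusted p = 1.8e-06 and 7.79e-07). Eif3k, a small subunit whose E-box window is shown above, was read at 10.96, 11.03 and 11.10 on the untreated arrays, 11.62, 11.63 and 11.61 with TSA and 11.65, 11.65 and 11.68 with butyrate. It rose by 0.59 ± 0.0489 and 0.63 ± 0.0489 (adjusted p = 3.06e-06 and 1.59e-06), again with no overlap between treated and untreated arrays.

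The other measured subunits changed less than Eif3i and Eif3k did in these estimates, although the difference between subunits was not tested. Eif3c, Eif3d, Eif3f and Eif3h rose by 0.32, 0.30, 0.32 and 0.33 with TSA and by 0.17, 0.25, 0.19 and 0.27 with butyrate, and the butyrate rises turned to -0.25, -0.16, -0.23 and -0.15 on the hybridization scale. Eif3e was the member of this complex with the next largest TSA rise, from 11.67, 11.65 and 11.60 to 12.06, 12.07 and 12.05 (0.42 ± 0.0431, adjusted p = 1.6e-05), and it stood at 11.85, 11.87 and 11.84 with butyrate (0.21 ± 0.0431, adjusted p = 0.00184; -0.21 on the hybridization scale). Treated arrays of each kind lay above the untreated ones, and the TSA arrays above the butyrate arrays. Eif3l and Eif3m rose with TSA (0.30 and 0.26) and were not called with butyrate (0.11 and 0.066). Eif3a, the scaffold subunit, was not called with either (0.18 ± 0.0726, 95% interval 0.013 to 0.34, and 0.13 ± 0.0726, 95% interval -0.035 to 0.29), but a second bright probe set of it was higher with TSA (0.24, adjusted p = 0.00189) and with butyrate (0.13, adjusted p = 0.0424). Eif3b, the other scaffold subunit, was read at 9.41, 9.57 and 9.64 on the untreated arrays, 9.57, 9.71 and 9.72 with TSA and 9.35, 9.17 and 9.25 with butyrate. Its butyrate arrays all lay below the untreated ones (-0.28 ± 0.0748, adjusted p = 0.00845), whereas the TSA arrays overlapped them (0.13, adjusted p = 0.194). The butyrate rise of Eif3c was called on its brightest probe set, and its other 3 sets gave -0.014, 0.00028 and 0.42, none of them called.

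Among the genes of eIF4F and cap binding the 2 directions were even with TSA, 4 of 9 higher and 4 lower, and with butyrate 5 were higher and 3 lower (1 and 5 on the hybridization scale). Eif4e3, which encodes a cap-binding protein of the eIF4E family, had the largest difference of all 48 members in either comparison. Its level was 7.36, 7.32 and 7.18 on the untreated arrays, 8.51, 8.40 and 8.45 with TSA and 8.63, 8.48 and 8.64 with butyrate. The 6 treated arrays all lay above the 3 untreated ones, and the TSA and butyrate arrays overlapped. The rise was 1.17 ± 0.067 with TSA, 2.25-fold (adjusted p = 2.32e-07), and 1.30 ± 0.067 with butyrate, 2.46-fold (adjusted p = 8.12e-08). A second probe set of Eif4e3 rose by 1.36 and 1.53. Eif4e, the main cap-binding protein, rose from 9.79, 9.91 and 9.83 to 10.26, 10.27 and 10.37 with TSA and 10.15, 10.19 and 10.21 with butyrate, a difference of 0.46 ± 0.0528 (adjusted p = 3.49e-05) and 0.34 ± 0.0528 (adjusted p = 0.000268). Groups did not overlap, and on the hybridization scale the butyrate difference was -0.073 and not called. Eif4e2, a cap-binding relative known for repressing translation, went the other way, with levels of 9.43, 9.39 and 9.52 on the untreated arrays, 9.07, 9.19 and 9.16 with TSA and 8.94, 8.89 and 8.94 with butyrate. It fell by 0.31 with TSA (adjusted p = 0.000736) and by 0.52 with butyrate (adjusted p = 1.39e-05), with no overlap between treated and untreated arrays.

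Among the helicase and scaffold genes, Eif4a1 and Eif4g2 fell with each treatment. Eif4a1, the main eIF4A helicase, was read at 12.62, 12.69 and 12.66 on the untreated arrays, 12.43, 12.35 and 12.40 with TSA and 12.19, 12.09 and 12.15 with butyrate. The 3 groups stood apart from each other in that order, with differences of -0.26 ± 0.0493 for TSA (adjusted p = 0.0012) and -0.51 ± 0.0493 for butyrate (adjusted p = 8.16e-06). The other probe sets of Eif4a1 gave -0.33 and -0.59 with TSA and -0.66 and -0.77 with butyrate. Eif4a2, its close paralog, stood at 11.53, 11.44 and 11.49 on the untreated arrays, 11.10, 11.10 and 11.17 with TSA and 11.47, 11.38 and 11.44 with butyrate. It fell with TSA (-0.36 ± 0.0496, adjusted p = 0.00012) and was not called with butyrate (-0.053 ± 0.0496, 95% interval -0.16 to 0.058). Eif4g2 encodes an eIF4G relative (DAP5) that lacks the eIF4E-binding part and serves cap-independent initiation; it was read at 13.07, 12.99 and 13.05 on the untreated arrays, 12.43, 12.48 and 12.56 with TSA and 12.30, 12.37 and 12.33 with butyrate. It fell by 0.54 with TSA, 1.46-fold, and by 0.70 with butyrate, 1.62-fold (adjusted p = 8.18e-06 and 1e-06), and no treated array reached the untreated range. Its probe sets at mean levels of 11.4 and 8.97 fell by 0.79 and 0.67 with TSA and by 1.03 and 0.92 with butyrate, while a dim one at 4.65 was not called. Eif4g3, a scaffold of eIF4F, stood at 8.71, 8.92 and 8.87 on the untreated arrays, 8.92, 8.99 and 9.01 with TSA and 9.36, 9.32 and 9.38 with butyrate. It rose with butyrate (0.52 ± 0.0604, adjusted p = 3.3e-05; 0.11 and not called on the hybridization scale) and was not called with TSA (0.14 ± 0.0604, adjusted p = 0.0853). Eif4b and Eif4h, which stimulate the helicase, rose by 0.36 and 0.29 with TSA and by 0.34 and 0.20 with butyrate (turned to -0.079 and -0.21 on the hybridization scale); the other probe sets of Eif4b were called with neither treatment (0.20 and -0.044 with TSA, -0.019 and -0.055 with butyrate).

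**Figure D2:**
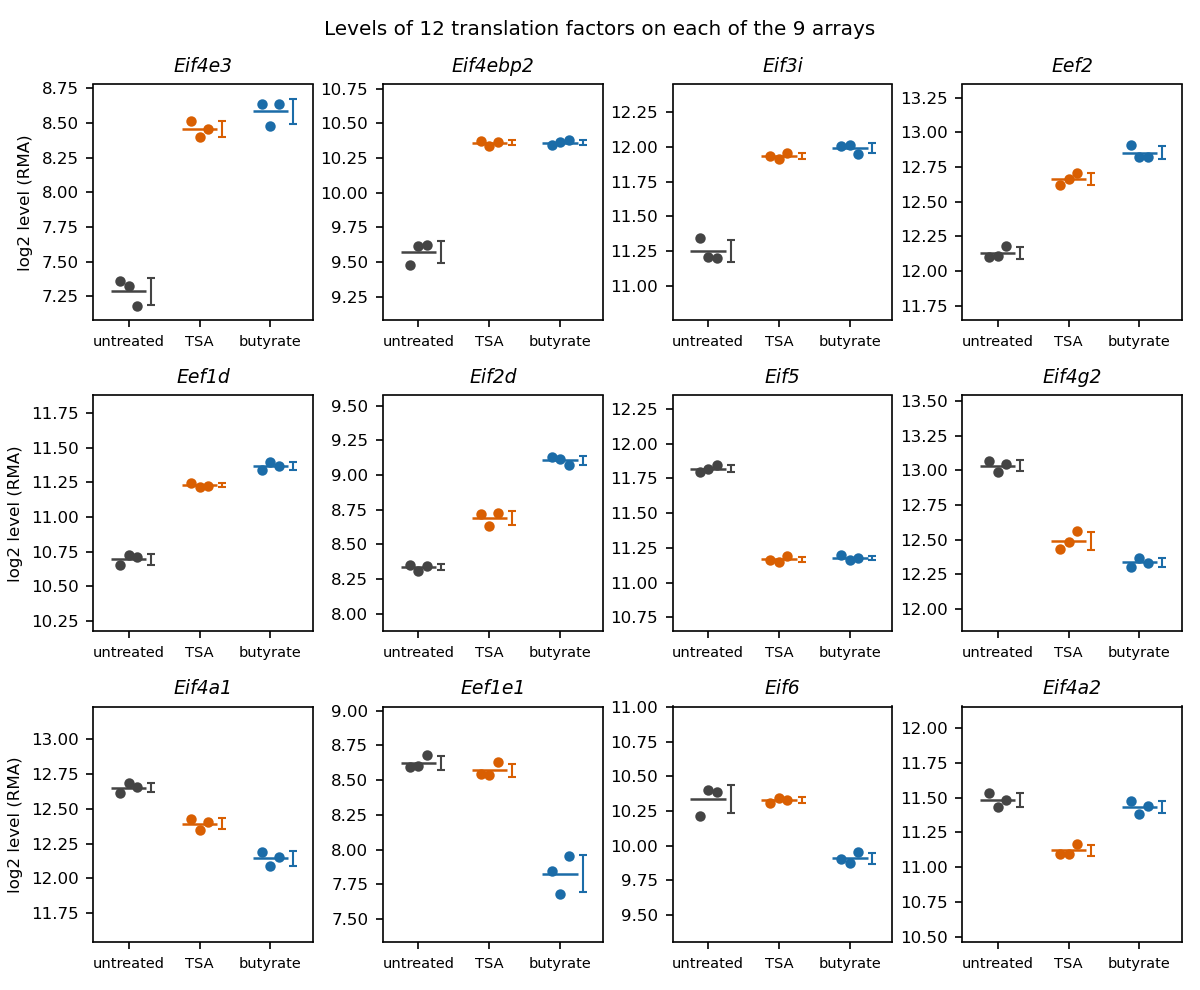
RMA log2 levels of 12 translation factors on each of the 9 arrays (points), with the mean of the 3 arrays of a group (line) and its SD (bar); every panel spans the same range of log2 units. Eif4e3, Eif4ebp2, Eif3i, Eef2, Eef1d and Eif2d stood higher with each treatment, Eif5, Eif4g2 and Eif4a1 lower, Eef1e1 and Eif6 fell with butyrate and Eif4a2 with TSA.

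Of the proteins that restrain or move eIF4E, Eif4ebp2 rose with each treatment. Eif4ebp2, a 4E-binding protein that keeps eIF4E from eIF4G until mTORC1 phosphorylates it, was read at 9.48, 9.61 and 9.62 on the untreated arrays, 10.37, 10.34 and 10.37 with TSA and 10.35, 10.36 and 10.38 with butyrate. The TSA and butyrate arrays overlapped, and all of them lay above the untreated ones. The rise on this brightest probe set was 0.79 ± 0.0505 with TSA and 0.79 ± 0.0505 with butyrate, 1.73-fold in each (adjusted p = 5.02e-07 and 3.71e-07). Its other, dimmer probe sets gave 0.55, 0.35, 0.22 and 0.15 with TSA, where only the set at 0.35 was called. With butyrate the same sets gave 1.10, 0.33, 0.32 and 0.35, all called but the one at 0.32. The equal size of the rises therefore rests on 1 probe set. Eif4ebp1, the other 4E-binding protein measured, was not called with TSA (-0.021 ± 0.0578, 95% interval -0.15 to 0.11) or with butyrate (0.14 ± 0.0578, 95% interval 0.013 to 0.27). Eif4enif1, which carries eIF4E to the nucleus and to P-bodies, rose slightly with TSA (0.18 ± 0.0443, adjusted p = 0.00672) and was not called with butyrate (0.089).

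Of the 4 genes of scanning and start codon recognition, 1 was lower with TSA and 3 were not called, and with butyrate 3 were lower, all 4 being lower on the hybridization scale. Eif5, which activates the GTPase of eIF2 at the start codon, was read at 11.79, 11.82 and 11.85 on the untreated arrays, 11.16, 11.15 and 11.19 with TSA and 11.20, 11.16 and 11.17 with butyrate. Treated and untreated arrays stood apart, and the treatments overlapped each other. Eif5 fell by 0.65 with TSA, 1.57-fold (adjusted p = 5.75e-07), and by 0.64 with butyrate, 1.56-fold (adjusted p = 4.92e-07), and its other 3 probe sets fell by 0.77, 1.03 and 0.79 with TSA and by 0.86, 1.04 and 0.61 with butyrate. Eif1ax, an X-linked eIF1A gene, was read at 10.68, 10.73 and 10.74 on the untreated arrays, 10.82, 10.78 and 10.79 with TSA and 10.40, 10.33 and 10.41 with butyrate on its brightest probe set. That set fell with butyrate (-0.34 ± 0.0451, adjusted p = 9.25e-05) and was not called with TSA (0.082), whereas a dimmer set rose by 0.52 and 0.28 (adjusted p = 2.29e-05 and 0.00145), so the gene had no settled direction. Eif1b fell with butyrate (-0.33 ± 0.0607, adjusted p = 0.000947) and was not called with TSA (-0.034), and Eif1a was called in neither (-0.063 and -0.14), although its other probe set was lower with butyrate (-0.17, adjusted p = 0.0102).

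eIF2 and its exchange factor eIF2B showed unequal changes among their subunits. Eif2s2, the beta subunit of eIF2, rose from 11.38, 11.44 and 11.36 to 11.73, 11.66 and 11.65 with TSA (0.29 ± 0.0465, adjusted p = 0.000385) and to 11.52, 11.53 and 11.52 with butyrate (0.14 ± 0.0465, adjusted p = 0.0282). The butyrate rise was lost on leaving out untreated array 1 or 3 or any 1 butyrate array (adjusted p from 0.057 to 0.081), turned to -0.28 on the hybridization scale, and a dim probe set of the gene fell with TSA (-0.35, adjusted p = 0.0327). Eif2s3x, the gamma subunit on the X chromosome, rose with TSA (0.32 ± 0.0776, adjusted p = 0.00634) and was not called with butyrate (0.044), although its dimmest probe set fell with butyrate (-0.53, adjusted p = 0.0188). Eif2s3y, the copy on the Y chromosome, was near the floor of the scale on every array, at 3.22 to 3.39. Eif2b2, the beta subunit of eIF2B, stood at 9.27, 9.30 and 9.40 on the untreated arrays, 10.01, 9.98 and 9.96 with TSA and 9.78, 9.84 and 9.80 with butyrate, and Eif2b4, the delta subunit, at 8.45, 8.55 and 8.55 on the untreated arrays, 9.05, 9.08 and 9.09 with TSA and 9.17, 9.03 and 9.03 with butyrate. Every treated array lay above the untreated ones for both genes. Eif2b2 rose by 0.66 ± 0.0497 and 0.48 ± 0.0497, and Eif2b4 by 0.56 ± 0.0544 and 0.56 ± 0.0544 (adjusted p from 1.58e-06 to 1.32e-05). On the hybridization scale the butyrate rises were 0.068 and 0.14 and not called. Other probe sets of Eif2b2 gave 0.46 and 0.44 with TSA, both called, and 0.17 (not called) and 0.28 (called) with butyrate. Eif2b5, the catalytic epsilon subunit, was read at 8.33, 8.38 and 8.35 on the untreated arrays, 8.31, 8.32 and 8.29 with TSA and 8.04, 7.93 and 8.07 with butyrate. It fell with butyrate (-0.34 ± 0.0506, adjusted p = 0.000212), where no array reached the untreated range, and was not called with TSA (-0.051, adjusted p = 0.465). Eif2b1, the alpha subunit, was not called with TSA (0.17, adjusted p = 0.0542) or butyrate (-0.086).

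The factors of subunit joining and of other initiation routes each followed a pattern of their own. Eif2d, which can bring initiator tRNA to the ribosome without eIF2, was read at 8.35, 8.31 and 8.35 on the untreated arrays, 8.72, 8.63 and 8.72 with TSA and 9.13, 9.12 and 9.07 with butyrate. The 3 groups did not overlap. Its rise was 0.36 ± 0.0468 with TSA (adjusted p = 9.6e-05) and 0.77 ± 0.0468 with butyrate, 1.7-fold (adjusted p = 2.61e-07), and its other 3 probe sets gave 0.64, 0.62 and 0.34 with butyrate. Eif5b, the GTPase that joins the large subunit, stood at 8.77, 8.78 and 8.86 on the untreated arrays, 9.41, 9.42 and 9.33 with TSA and 9.05, 8.92 and 9.03 with butyrate. It rose by 0.58 ± 0.0544, 1.5-fold, with TSA (adjusted p = 7.57e-06) and by 0.19 ± 0.0544 with butyrate (adjusted p = 0.0117; -0.22 on the hybridization scale). Eif6, which keeps the large subunit from joining early, was read at 10.22, 10.40 and 10.39 on the untreated arrays, 10.31, 10.35 and 10.33 with TSA and 9.90, 9.87 and 9.95 with butyrate. Only its butyrate arrays stood apart, with a fall of 0.43 (adjusted p = 0.000103), and with TSA it was not called (-0.0066, 95% interval -0.14 to 0.12). Eif5a, the hypusine-carrying factor that helps ribosomes through difficult peptide bonds, rose from 12.72, 12.79 and 12.82 to 13.21, 13.20 and 13.25 with TSA (0.44 ± 0.0527, adjusted p = 4.57e-05) and to 13.03, 12.98 and 13.12 with butyrate (0.27 ± 0.0527, adjusted p = 0.00133; -0.15 on the hybridization scale). Neither treated group overlapped the untreated one. Another probe set of Eif5a rose with TSA (0.29, adjusted p = 0.00392) and was not called with butyrate (0.095).

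Of the 10 genes with Eef symbols, the translocase and the exchange complex of eEF1A held most of the rises, and the 4 that rose with TSA were Eef2, Eef1d, Eef1b2 and Eef2kmt. Eef2, the translocase, was read at 12.10, 12.11 and 12.18 on the untreated arrays, 12.62, 12.67 and 12.71 with TSA and 12.91, 12.83 and 12.83 with butyrate. The groups stood apart in that order. Eef2 rose by 0.54 ± 0.0496 with TSA, 1.45-fold (adjusted p = 6.96e-06), and by 0.72 ± 0.0496 with butyrate, 1.65-fold (adjusted p = 6.17e-07). Eef2k, the kinase that inhibits eEF2, was not called (-0.19, 95% interval -0.40 to 0.018, with TSA and -0.17, 95% interval -0.38 to 0.036, with butyrate). Eef2kmt, a lysine methyltransferase of eEF2, stood at 6.15, 6.37 and 6.34 on the untreated arrays, 6.69, 6.52 and 6.61 with TSA and 6.76, 6.55 and 6.37 with butyrate. It was called higher (0.32 ± 0.0975, adjusted p = 0.0206, and 0.27 ± 0.0975, adjusted p = 0.0336), but the TSA call was lost without untreated array 1 or TSA array 1 or 3 (adjusted p from 0.052 to 0.083) and the butyrate call without untreated array 1 or butyrate array 1 or 2 (from 0.068 to 0.12).

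Eef1a1, which delivers tRNAs, was read at 14.49, 14.49 and 14.50 on the untreated arrays, 14.41, 14.42 and 14.45 with TSA and 14.44, 14.43 and 14.45 with butyrate. The treated arrays lay just below the untreated ones, yet neither difference was called (-0.068 ± 0.0417, adjusted p = 0.218, and -0.054 ± 0.0417, adjusted p = 0.288); on the hybridization scale the butyrate difference was -0.47 and called (adjusted p = 4.86e-05). Eef1a2, the paralog typical of muscle and neurons, was not called either (-0.14 and -0.015; -0.43 and called for butyrate on the hybridization scale). Eef1d, the delta subunit of the exchange complex, was read at 10.65, 10.73 and 10.71 on the untreated arrays, 11.24, 11.22 and 11.22 with TSA and 11.34, 11.40 and 11.37 with butyrate. The groups did not overlap, with rises of 0.53 ± 0.0446 for TSA, 1.45-fold (adjusted p = 3.33e-06), and 0.68 ± 0.0446 for butyrate, 1.6-fold (adjusted p = 4.71e-07). Eef1b2, the beta subunit, rose from 13.45, 13.33 and 13.39 to 13.71, 13.70 and 13.75 and 13.70, 13.71 and 13.69 (0.33 ± 0.0476, adjusted p = 0.00019, and 0.31 ± 0.0476, adjusted p = 0.000276; -0.11 for butyrate on the hybridization scale). Eef1e1, which despite its symbol encodes a scaffold protein of the aminoacyl-tRNA synthetase complex, was read at 8.59, 8.60 and 8.68 on the untreated arrays, 8.54, 8.54 and 8.63 with TSA and 7.84, 7.68 and 7.95 with butyrate. It had the largest fall of all members with butyrate, 0.80 (1.74-fold, adjusted p = 3.38e-06), while the TSA arrays overlapped the untreated ones (-0.053, adjusted p = 0.583). Eef1akmt1, an eEF1A methyltransferase, fell with butyrate (-0.30 ± 0.0589, adjusted p = 0.00133), but a dimmer probe set rose (0.23, adjusted p = 0.0111), and Eef1aknmt was called in neither comparison (0.19 and 0.11).

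Other probe sets of the same genes offer a second reading from the same arrays. Of 51 other probe sets of members called with TSA, 46 had the same direction, 35 of them called, and 1 was called in the opposite direction (the dim Eif2s2 set). With butyrate 42 of 50 had the same direction, 30 of them called, and 2 were called the opposite way (Eif1ax and Eef1akmt1). Of other probe sets of members that were not called, 2 of 10 were called with TSA, both higher, and 3 of 11 with butyrate, 1 higher and 2 lower. Among sets brighter than the median gene, 33 of 34 and 31 of 35 had the same direction. Over all genes, read on 1 probe set each, 47.3% were called with TSA (26.3% higher, 21.0% lower). With butyrate 58.4% were called (33.6% higher, 24.8% lower), and the butyrate calls above, taken in either direction, were near that share.

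**Figure D3:**
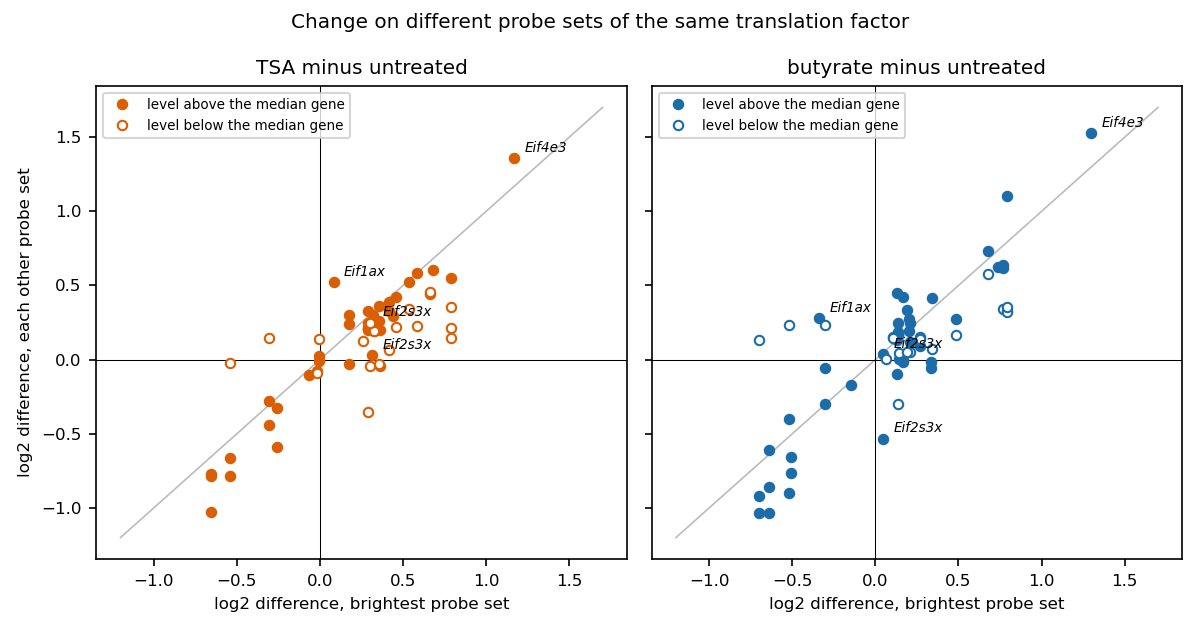
log2 difference from untreated on the brightest probe set of a member (horizontal) against that on each of its other probe sets (vertical), for TSA and butyrate; the grey line marks equality and open points lie below the median gene level. Eif4e3 changed alike on both of its sets, while the dimmer set of Eif1ax rose by 0.28 with butyrate where the brightest fell by 0.34.

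The treatments were also set against each other, with doses and durations that the labels do not give, so the comparison is of these arrays and not of matched exposures. Butyrate minus TSA called 26 members where 35.9% of genes were called: 5 were higher with butyrate (15.9% of genes) and 21 lower (20.0%), with a median of -0.09 against 0.03 over all genes. No member called here reached 2-fold, as 0.379% of genes did; the largest was Eef1e1, 1.68-fold. On the hybridization scale 45 were lower and 3 not called, where the median of all genes was -0.37 and that of the members -0.49, and on the poly-A scale 21 were lower and 27 not called. The largest differences toward TSA were those of Eef1e1 (-0.74 ± 0.0688, adjusted p = 4.43e-05), Eif6 (-0.42 ± 0.0577), Eif1ax (-0.42 ± 0.0451) and Eif3b (-0.41 ± 0.0748). In the other direction stood Eif2d (0.41 ± 0.0468, adjusted p = 0.000136), Eif4g3 (0.38 ± 0.0604), Eif4a2 (0.31 ± 0.0496) and Eef2 (0.19 ± 0.0496). On the hybridization scale they were 0.014, -0.02, -0.089 and -0.21, so all but Eif2d turned and none of the 4 was called higher; the call of Eef2 on the deposited scale was also lost without TSA array 1 or butyrate array 1 (adjusted p = 0.058 and 0.059). Eif5b was lower with butyrate than with TSA by 0.39 (adjusted p = 0.000461). Among the 11 eIF3 subunits 6 were lower with butyrate than with TSA and 5 were not called, and among the 4 eIF2B subunits 3 were lower and 1 not called. Eif4ebp2, Eif2b4 and Eif5 were not called, with differences of 0.0027 (95% interval -0.11 to 0.12), 0.0045 (95% interval -0.12 to 0.13) and 0.011 (95% interval -0.085 to 0.11).

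**Figure D4:**
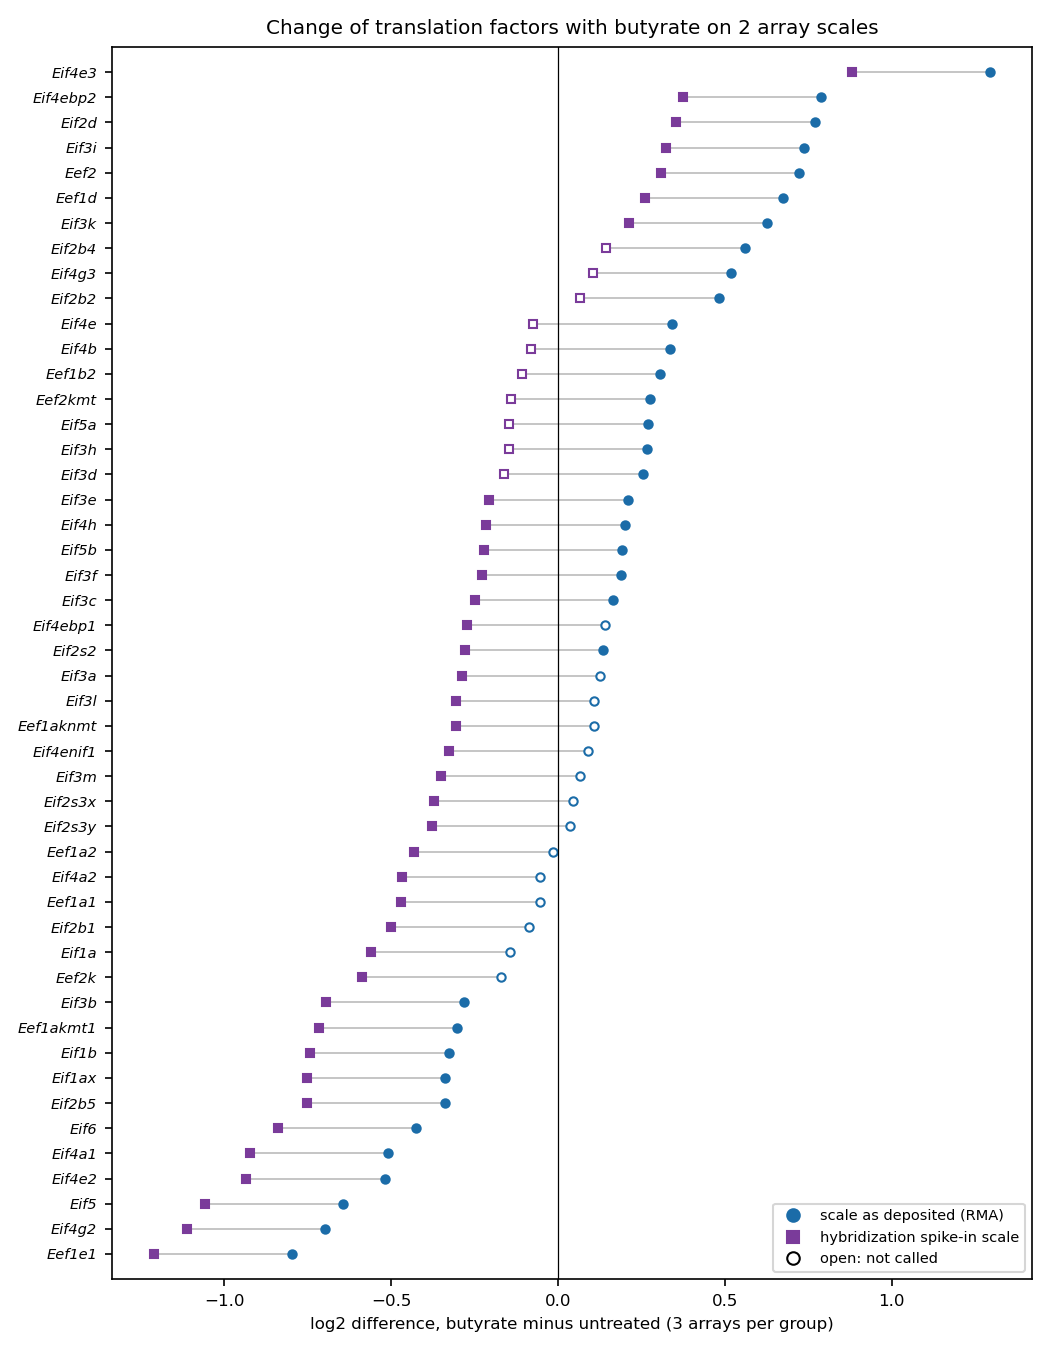
log2 difference between butyrate and untreated (3 arrays per group) of each of the 48 members on the deposited RMA scale (blue circles) and after the arrays were set equal on the hybridization spike-ins (purple squares); open points were not called. Each member shifted by the same 0.42, which left 7 called higher and 31 called lower.

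Genes of neighbouring steps, taken from lists chosen with earlier results of these data known, are given by their counts. Over all genes on the deposited scale, 26.3% were called higher and 21.0% lower with TSA, and 33.6% and 24.8% with butyrate. For butyrate minus TSA the shares were 15.9% and 20.0%. Some counts here and in the next 2 paragraphs lie near these shares, and the lists were not tested against them. Of 12 genes of the eIF2alpha kinases and the integrated stress response, 2 were higher and 6 lower with TSA, and 4 and 5 with butyrate (1 and 8 on the hybridization scale). Eif2ak4 (GCN2, the kinase that senses uncharged tRNA) stood at 7.28, 7.41 and 7.38 on the untreated arrays, 8.74, 8.73 and 8.65 with TSA and 8.50, 8.46 and 8.52 with butyrate. It rose by 1.36 ± 0.0521 with TSA, 2.56-fold (adjusted p = 2.29e-08), and by 1.14 ± 0.0521 with butyrate, 2.2-fold (adjusted p = 3.56e-08), with no overlap. Atf4, the transcription factor whose translation rises when eIF2 is phosphorylated, fell by 0.91 and 0.57 (adjusted p = 1.46e-07 and 2.93e-06), and Ppp1r15a (GADD34, which brings a phosphatase to eIF2) by 0.77 and 0.73. Of 15 genes of mTORC1 and the kinases of cap-dependent initiation, 9 were higher and 1 lower with TSA, and 9 and 3 with butyrate (6 and 6 on the hybridization scale). Mknk2, a kinase of eIF4E, rose by 0.69 ± 0.0487 and 1.13 ± 0.0487; Pdcd4, an inhibitor of eIF4A, by 0.76 ± 0.0446 and 0.95 ± 0.0446; and Deptor, an mTOR inhibitor, by 0.77 ± 0.114 and 0.92 ± 0.114. Mtor itself was not called (0.14, 95% interval -0.0027 to 0.28, and 0.081, 95% interval -0.061 to 0.22).

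Of 9 poly(A)-binding proteins and other initiation partners, 4 were higher and 1 lower with TSA and 4 and 3 with butyrate (2 and 5 on the hybridization scale). Denr and Mcts1, whose proteins pair up in recycling and reinitiation, moved in opposite directions: Denr rose by 0.67 ± 0.0467 with TSA and 1.26 ± 0.0467 with butyrate, and Mcts1 fell by 0.44 and 0.86 (adjusted p from 1.01e-08 to 3.48e-05). Denr was read at 8.96, 8.98 and 8.99 on the untreated arrays, 9.59, 9.64 and 9.70 with TSA and 10.20, 10.23 and 10.26 with butyrate, and Mcts1 at 9.82, 9.87 and 9.83 on the untreated arrays, 9.46, 9.34 and 9.40 with TSA and 8.99, 8.94 and 9.03 with butyrate. For both genes the 3 groups stood apart. Of the 6 genes of termination and recycling, 5 were higher with TSA and 1 not called (3 higher on the hybridization scale and 0 on the poly-A scale, where the median was 0.26 against 0.27), against 2 lower and 4 not called with butyrate (all 6 lower on the hybridization scale), where Gspt1, the release factor eRF3, fell by 0.64 (adjusted p = 3.82e-06) and Abce1, which splits ribosomes, by 0.45 (adjusted p = 4.94e-05). Butyrate minus TSA called 5 of these 6 lower. Of 4 genes of polyamine and hypusine synthesis, which supplies eIF5A's modified lysine, Dhps, the enzyme that starts it, fell by 0.94 with TSA (adjusted p = 8.61e-06) and by 1.22 with butyrate (adjusted p = 1.03e-06), Srm (spermidine synthase) fell by 0.65 and 1.10, and Odc1 (ornithine decarboxylase) rose by 0.53 and 1.13. Dohh, which finishes hypusine, rose with TSA (0.17, adjusted p = 0.0179) and was not called with butyrate (0.051).

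Of 20 cytosolic aminoacyl-tRNA synthetase genes and their scaffold partners, 12 were higher and 1 lower with TSA, and 8 and 3 with butyrate (13 lower and 7 not called on the hybridization scale); butyrate minus TSA called 10 lower and left 10 not called (all 20 lower on the hybridization scale). Rars and Farsb, for arginine and phenylalanine, rose by 0.93 ± 0.0503 and 0.93 ± 0.0803 with TSA, and Aars, for alanine, fell by 0.68 and 0.67. With butyrate Rars rose by 0.49 ± 0.0503 (adjusted p = 1.35e-05) and Farsb was not called (0.035). Of 5 mitochondrial translation factors 3 were higher and 1 lower with TSA and 1 and 2 with butyrate (4 lower and 1 not called on the hybridization scale). Gfm1, a mitochondrial elongation factor, rose with TSA (0.30 ± 0.0468, adjusted p = 0.000317) and fell with butyrate (-0.44 ± 0.0468, adjusted p = 1.77e-05), and the difference between the treatments was -0.74 ± 0.0468 (adjusted p = 8.19e-06). In the Myc network, whose proteins bind the E-box, 3 of 10 genes were higher and 4 lower with TSA and 1 and 3 with butyrate (9 lower and 1 not called on the hybridization scale); Myc itself was not called (0.13 and -0.022), Mnt, a repressor of the network, fell by 0.25 and 0.57, and Max rose with TSA (0.41). The 48 cytosolic ribosomal protein genes gave 18 higher and 3 lower with TSA (median 0.10; 7 and 2 on the hybridization scale, and 0 and 2 on the poly-A scale with a median of 0.09) and 15 and 5 with butyrate (median 0.09; 39 lower and 9 not called on the hybridization scale), and 3 lower and 45 not called for butyrate minus TSA (47 lower on the hybridization scale, median -0.40); the difference from the translation factors was not tested. Eif1, Eif2s1, Eif2b3, Eif4g1, Eif4ebp3 and Eif5a2 were not analysed here.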

How the data were processed

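Levels of RNA were measured in 9 samples of CD11c-enriched splenic dendritic cells, 3 per group, on one-colour Affymetrix arrays. The authors deposited 22690 probe set values on a log2 scale, computed by RMA according to the submitters' processing notes; which program and version they ran is not given in sources used here, and scan dates were not used. RMA equalises the distribution of values between arrays, so differences are relative to other genes, and differences of dim genes near the floor are understated.

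The platform annotation gave 20380 probe sets 1 symbol, 691 several and 1555 none, beside 64 controls; the probe set with the highest mean stood for each of 12393 genes. A model with a mean per group was fitted to all genes and all 9 arrays in limma 3.58.1 (R 4.3.3, lmFit and eBayes, 6 residual and 3.9 prior degrees of freedom), with Benjamini-Hochberg adjustment over the 12393 genes; called means an adjusted p under 0.05, errors after log2 differences are limma's standard errors, and intervals are 95%. The fit was tested on simulated data with known changes. A change of 0.5 was recovered in 80.6%, 80.6% and 79.1% of genes for TSA, butyrate and butyrate minus TSA. For a change of 0.25 the shares were 31.8%, 33.3% and 24.2%. Each simulation changed 67 genes by 1, 67 by 0.5 and 66 by 0.25, far fewer than were called in the data. The adjustment is stricter when few genes change, so these shares are not the recovery of the fits to the data. A gene not called may still have changed by a small amount. Spike-in means were compared by an exact two-sided permutation test. Promoters came from RefSeq.

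The members, lists and alternatives were chosen with earlier results of these data known, and the members then had to be named by a fixed rule: the 6 largest rises and falls among called members per treatment, the 4 and 4 of butyrate minus TSA, the listed core factors whatever their value, and up to 4 called genes of each related list. Genes outside it (such as Mtor, Myc, Dohh and Max) were named after their values were seen. Alternatives were 3 array scales, a filter on dim genes, other probe set rules, pairwise fits, trend and robust estimation, a replicate block, and leaving out each array. Same-numbered arrays did not deviate together (correlations of deviations from -0.12 to 0.21), so the numbers were not taken as pairs.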

Additional observations from a re-analysis of the deposited data

Results flagged for a closer look

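Probe sets that the annotation assigns to several symbols entered no count above, and some of them that name a translation factor changed in the same kind of fit (limma over all annotated probe sets, chosen after seeing the data). The probe set of Eif4a3, a helicase of the exon junction complex, shared with Gm5576, rose by 0.39 ± 0.061 with TSA (adjusted p = 0.000473). The Eef1g set, shared with Gm29753 and reading the gamma subunit of the eEF1B complex, rose by 0.55 ± 0.047 with TSA and by 0.51 ± 0.047 with butyrate (adjusted p = 6.42e-06 and 9.43e-06). The 3 sets shared by Eif3j1 and Eif3j2, copies of an eIF3-associated gene, rose by 0.26, 0.29 and 0.40 with TSA. A set shared by Eif1a, Gm4027 and BB287469 rose by 0.40 ± 0.129 with butyrate (adjusted p = 0.0249). Which of the named transcripts gave each signal was not tested.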

How the results depend on the processing

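Array scale changed the counts most. On the poly-A scale 14 members were called with TSA (12 higher, 2 lower) and 19 with butyrate (6 higher), and 0 were higher in butyrate minus TSA. On the hybridization scale 7 were higher and 31 lower with butyrate, and 45 were called in butyrate minus TSA, 45 lower and 0 higher. Called rises that turned with butyrate on that scale were Eef1b2 (-0.11), Eef2kmt (-0.14), Eif2s2 (-0.28), Eif3c (-0.25), Eif3d (-0.16), Eif3e (-0.21), Eif3f (-0.23), Eif3h (-0.15), Eif4b (-0.079), Eif4e (-0.073), Eif4h (-0.21), Eif5a (-0.15) and Eif5b (-0.22), and on the poly-A scale Eef2kmt (-0.011), Eif2s2 (-0.15), Eif3c (-0.12), Eif3d (-0.031), Eif3e (-0.075), Eif3f (-0.10), Eif3h (-0.017), Eif4h (-0.085), Eif5a (-0.016) and Eif5b (-0.093). In butyrate minus TSA, Eef1d (-0.26), Eef2 (-0.21), Eif4a2 (-0.089) and Eif4g3 (-0.020) turned on the hybridization scale and Eef1d (-0.13) and Eef2 (-0.086) on the poly-A scale. These follow from shifting each array by its spike-ins. Without probe sets that can match several transcripts, Eif3c with butyrate was -0.014; the cause was not tested.

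Leaving out 1 array gave 30 to 33 calls with TSA (25 to 27 higher, 5 to 6 lower), 32 to 36 with butyrate (21 to 24, 11 to 12) and 18 to 22 in butyrate minus TSA (3 to 5, 14 to 17), where 3 were higher without TSA array 1 or butyrate array 1. With the replicate block the calls were 32, 32 and 21. The other alternatives left each count within 1.5 times. Limits are the 3 arrays per group, unknown doses and times, and the array scale.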
